A study of Mus musculus with 6 samples.

Results

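The antiviral interferon-stimulated genes described here are 40 named mouse genes, found among the 56599 probes of the array by gene symbol or by the current symbol of the listed RefSeq transcript. All 40 had at least 1 probe, 74 probes in all, and all 40 were among the 22741 genes tested. The tissue was renal cortex of male C57BL/6 mice, measured on 6 one-colour arrays. In the first group of 3 samples the C3a receptor, a receptor for a fragment of complement component C3, was knocked out (C3aR-/-), and the other group of 3 was wild type (WT). Both groups were diabetic: mice 8 weeks old began a diet with 60% of its calories as fat, received streptozotocin at 60 mg/kg on 3 days after 4 weeks of the diet, and were killed 26 weeks after streptozotocin. Non-diabetic mice were not analysed here, so nothing below says what diabetes did to these genes, and both groups model a diabetes made by diet and a beta-cell poison.

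Type I interferons bind a cell-surface receptor whose kinases JAK1 and TYK2 switch on transcription factors that bind interferon-stimulated response elements (ISREs) in front of the antiviral genes. Type II interferon has its own receptor and acts mainly at gamma-activated sites (GAS). The products sense viral RNA or DNA, degrade it, block its translation or hold virions at the membrane. In kidney, tubular, endothelial and immune cells can all respond, so a level in whole cortex sums over them.

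The promoter stretches below are shown because they hold the letters through which these genes are commonly read as a group. They come from RefSeq's windows of GRCm38.p6, which run from 250 bases before to 50 bases after each annotated start. Capitals mark matches of the ISRE core GAAANNGAAA on the gene's strand or, read on the opposite strand, TTTCNNTTTC. Each line is written 5′ to 3′ along the gene.
Isg15, chr4:156200855-156200916, minus strand: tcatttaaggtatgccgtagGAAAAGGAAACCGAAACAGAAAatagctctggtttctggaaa
Oas1a, chr5:120907526-120907565, minus strand: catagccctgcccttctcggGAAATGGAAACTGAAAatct
Oas1g, chr5:120887614-120887651, minus strand: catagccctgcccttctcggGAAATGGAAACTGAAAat
Oas3, chr5:120777705-120777754, minus strand: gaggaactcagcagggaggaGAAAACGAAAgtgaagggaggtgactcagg
Ifit1, chr19:34640765-34640833, plus strand: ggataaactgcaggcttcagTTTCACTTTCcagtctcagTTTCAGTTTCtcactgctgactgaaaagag
Ifit3, chr19:34583353-34583436, plus strand: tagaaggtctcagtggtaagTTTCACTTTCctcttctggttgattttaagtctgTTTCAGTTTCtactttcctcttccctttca
Ddx60, chr8:61928014-61928086, plus strand: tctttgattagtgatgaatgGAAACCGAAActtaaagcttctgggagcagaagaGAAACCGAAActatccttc
Trim30a, chr7:104465200-104465249, minus strand: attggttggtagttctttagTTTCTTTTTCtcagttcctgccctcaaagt
Bst2, chr8:71537567-71537622, minus strand: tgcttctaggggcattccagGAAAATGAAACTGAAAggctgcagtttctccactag
Rsad2, chr12:26456543-26456592, minus strand: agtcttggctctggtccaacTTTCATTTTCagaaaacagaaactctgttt

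The capital run of Isg15 holds 3 matches that overlap one another, and those of Oas1a, Oas1g and Bst2 hold 2 overlapping matches each. The Oas1a and Oas1g stretches carry the same capital letters and the same letters before them. Of the 29 members with a window, 15 (51.7%) held the ISRE core, against 1079 of 27025 genes with a window (3.99%). In 10 of the 15 a match lay before the start, as the map of match positions shows, and in Ifih1, Ddx58, Eif2ak2, Trim34a and Ifitm3 the matches lay after it. The GAS core TTCNNNGAA, which reads the same on both strands, was in 8 of the 29 (27.6%), against 9.55% of genes. A match is a run of letters and not a measured binding site. The other 11 members, among them Usp18, Zbp1, Mx1 and Mx2, are named here without a window.

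**Figure D1:**
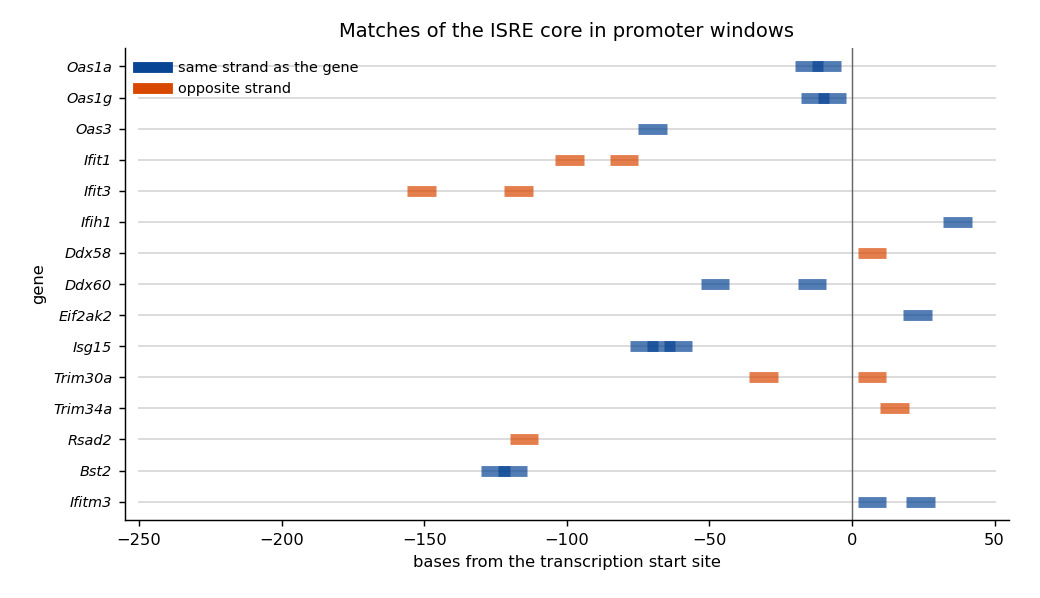
Positions of ISRE core matches in the promoter windows of the 15 members that hold one, in bases from the annotated start, which is at 0. Blue bars lie on the gene's strand and orange bars on the opposite strand; the 3 bars of Isg15 overlap, and 5 genes have matches only to the right of 0.

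Levels below are log2 signals relative to each array's 75th percentile. Since probes bind with different strength, a level is compared between arrays for 1 probe and never between genes. Differences are C3aR-/- minus WT on the log2 scale with limma's standard error over 3 arrays per group, and a difference of -1 is a fold of 0.5. C3ar1, the targeted gene, read -4.10, -4.95 and -4.69 on the C3aR-/- arrays and -2.96, -3.86 and -3.62 on the WT arrays, with no overlap and a difference of -1.10 ± 0.30. Its probe was well above background on 5 of the 6 arrays, and with normexp background correction the difference was -0.39. Without array WT replicate 1 and array C3aR-/- replicate 2 the difference of C3ar1 was -0.65. No source used here says whether its probe lies within the deletion. All 10 listed markers of renal cortical cells were tested, which needed only a probe well above background on at least 3 arrays. On the linear scale of the 75th percentile they summed to 413 to 526 in C3aR-/- and 287 to 454 in WT. Of 5 adrenal markers 2 were tested, and these summed to 0.224 to 0.271 in C3aR-/- and 0.177 to 0.232 in WT. No list of medullary markers was examined, so cortex was not told apart from medulla. Between 58.6% and 63.0% of probes were well above background on each array. The labels do not say that replicates were separate animals, so p-values reflect only how these samples vary. Array WT replicate 1 and array C3aR-/- replicate 2 stood farthest apart along principal component 1, which held 43.1% of the variance. Medians without these end arrays are given below for the members, their roles and several related lists.

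The members and the gene lists below were chosen with earlier results of these data known. Their counts set against all genes therefore describe the lists and do not test them. Of the 40 members, 37 read lower in C3aR-/- than in WT, against 43.4% of all genes tested. Their median difference was -0.49, against 0.026 over all genes. By at least 0.5 on the log2 scale, 20 members read lower, where 4.28% of all genes were. No member passed limma's test with Benjamini-Hochberg adjustment over all genes (0 of 40, lowest adjusted p = 0.931), and neither did any of the 22741 genes (0%, lowest adjusted p = 0.858). At an unadjusted p under 0.05 the count was 4 members (Oasl1, Ddx60, Isg15 and Trim30a), all lower, against 4.89% of all genes in either direction and 2.68% in that direction. Oasl1, Ddx60, Zbp1, Usp18 and Trim30a had groups that did not overlap, with C3aR-/- the lower, as 4.19% of all genes had, and 9.84% had groups apart in either direction. Oas1b, Trim25 and Rsad2 were the 3 members not lower. WT replicate 1 was the highest array for 34 members and C3aR-/- replicate 2 the lowest for 32. The members thus moved largely together, and 37 lower members are not 37 separate observations. In whole cortex, fewer cells of a type and less RNA per cell cannot be told apart.

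**Figure D2:**
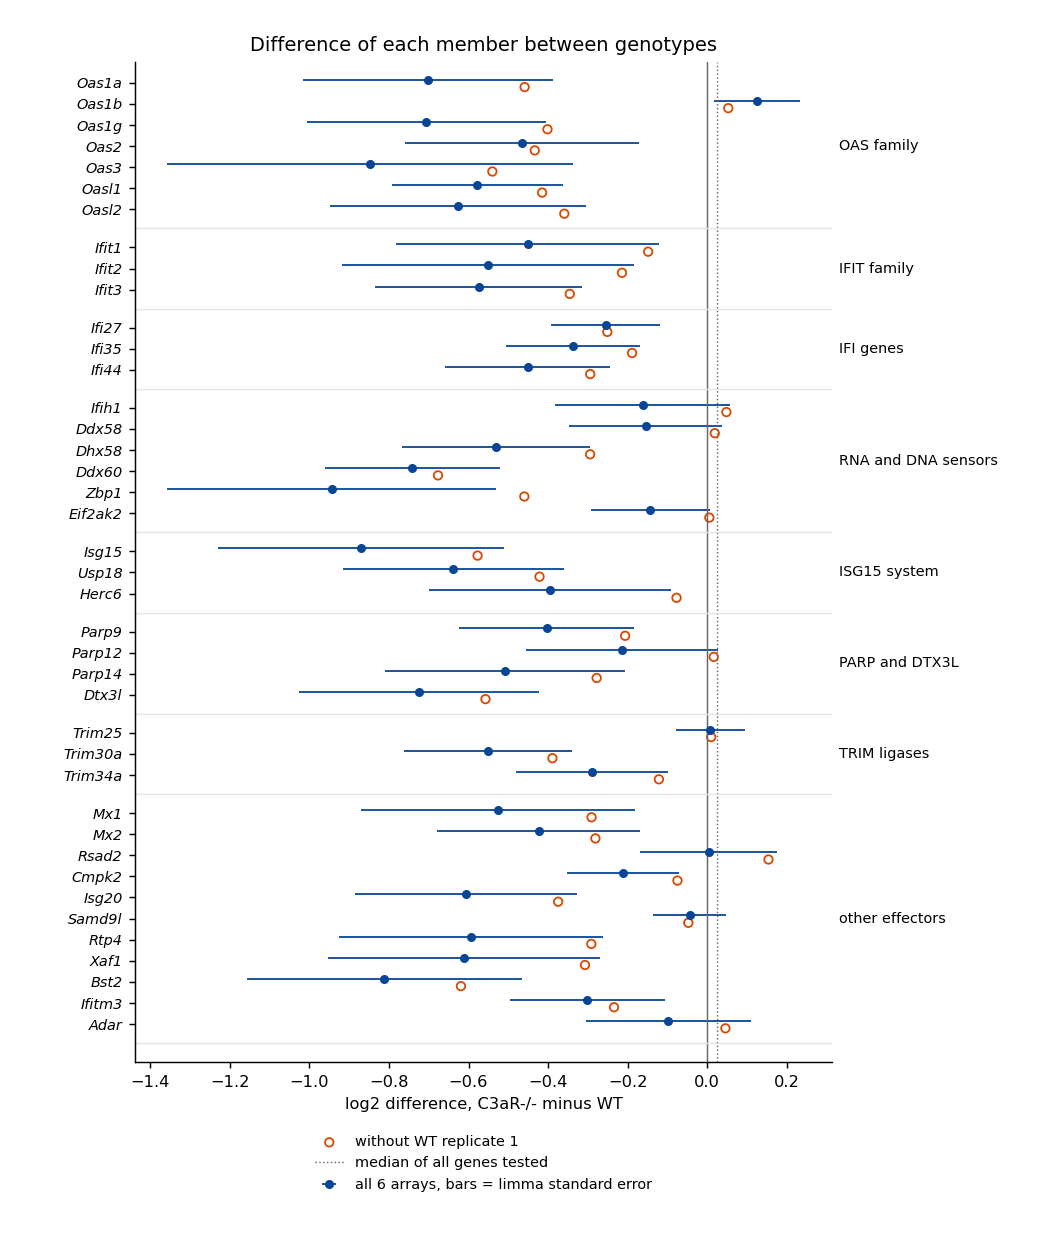
Difference of each member between genotypes (C3aR-/- minus WT, log2), in rows by role. Filled points are all 6 arrays with limma standard errors, open circles leave out WT replicate 1, and the dotted line is the median of all genes at 0.026; 37 filled points lie below 0, and 32 open circles do.

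The spread between replicates was wide for these genes. The median SD of a member within the group was 0.32 in C3aR-/- and 0.35 in WT, against 0.15 in C3aR-/- and 0.19 in WT over all genes. The range over the 6 arrays had a median of 1.27 among members and 0.52 among all genes. Oas1b, Trim25 and Samd9l were the 3 members that ranged over less than 0.5.

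The OAS family makes short chains of 2′-5′ linked adenylate that activate RNase L, which then cuts RNA. Oas1a read 3.38, 2.74 and 3.75 in C3aR-/- and 4.48, 3.72 and 3.78 in WT, a difference of -0.70 ± 0.31. Oas1g, a neighbouring copy, read -3.04, -3.27 and -2.61 in C3aR-/- and -1.66, -2.48 and -2.67 in WT, a difference of -0.71 ± 0.30. With normexp background correction the difference was -0.46 for Oas1g and -0.68 for Oas1a. In both genes WT replicate 1 was the highest array and C3aR-/- replicate 2 the lowest, and C3aR-/- replicate 3 lay near the other WT arrays. The probe of Oas1a lists transcripts of both genes, so their signals were not fully separate. Oas3, the largest protein of the family, read -4.19, -5.46 and -3.57 in C3aR-/- and -2.95, -3.77 and -3.97 in WT. Its difference of -0.85 ± 0.51 had the largest standard error in the family, and its probe was not well above background on C3aR-/- replicate 2, the lowest of the 6 arrays. With normexp background correction the difference of Oas3 was -0.25.

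Oasl1, which in mouse restrains translation of Irf7 mRNA, read 3.22, 2.87 and 3.52 in C3aR-/- and 4.11, 3.67 and 3.57 in WT. All 3 C3aR-/- arrays lay below all 3 WT arrays, at 0.67 of the WT level on average (-0.58 ± 0.22, limma, unadjusted p = 0.0341, adjusted p = 0.931). Oasl2, a close relative, differed by -0.63 ± 0.32 with groups that overlapped. Oas2 differed by -0.46 ± 0.29, and its highest array was WT replicate 3 at 1.63, against 1.45 on C3aR-/- replicate 3. Oas1b, the flavivirus resistance gene, carries a premature stop codon in C57BL/6 mice. It read 4.91, 5.01 and 4.88 in C3aR-/- and 4.66, 4.85 and 4.91 in WT, a difference of 0.13 ± 0.11 that ran against the rest of the family. The other 2 kept Oas1b probes gave -0.23 and -0.20, so the direction depended on the probe. The family's median was -0.63 over 7 genes.

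Ifit1 binds viral RNA that lacks the host's cap methylation and blocks its translation, and Ifit2 and Ifit3 are its relatives. Ifit1 read 1.10, 0.68 and 1.55 in C3aR-/- and 2.17, 1.42 and 1.09 in WT. Ifit2 read 0.24, -0.09 and 0.84 in C3aR-/- and 1.55, 0.77 and 0.32 in WT. Ifit3, whose human counterpart steadies IFIT1 on RNA, read 3.13, 2.99 and 3.64 in C3aR-/- and 4.29, 3.71 and 3.48 in WT. All 3 genes had the same order at the ends, with WT replicate 1 highest and C3aR-/- replicate 2 lowest, and in all 3 C3aR-/- replicate 3 exceeded WT replicate 3. Their differences were -0.45 ± 0.33, -0.55 ± 0.37 and -0.57 ± 0.26. Without WT replicate 1 the median of the family was -0.21 in place of -0.55, and without both end arrays it was -0.0038.

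The 3 IFI genes, named for their induction by interferon, all read lower in C3aR-/-, with a median of -0.34. Ifi27, a small membrane protein, read 6.29, 6.25 and 6.53 in C3aR-/- and 6.62, 6.78 and 6.43 in WT, a difference of -0.25 ± 0.14 that was also -0.25 without WT replicate 1. Ifi35 differed by -0.34 ± 0.17 and Ifi44 by -0.45 ± 0.21. In both of these WT replicate 1 was the highest array.

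Among the sensors, Ifih1 (MDA5) and Ddx58 (RIG-I) detect viral RNA and signal through MAVS, and Dhx58 (LGP2) modulates both. On their brightest probes Ifih1 differed by -0.16 ± 0.22 and Ddx58 by -0.15 ± 0.19. The other 3 kept Ddx58 probes gave -0.59, -0.18 and -0.13, and the mean of its probes -0.26. Without WT replicate 1 Ifih1 (0.049) and Ddx58 (0.019) lay just above 0. Dhx58 read -1.09, -1.35 and -0.88 in C3aR-/- and -0.10, -0.72 and -0.91 in WT, a difference of -0.53 ± 0.24. Eif2ak2 (PKR), the kinase that stops translation on binding double-stranded RNA, differed by -0.14 ± 0.15 and by 0.0058 without WT replicate 1. Ddx60, a helicase linked to RIG-I signalling, behaved otherwise. It read -3.10, -3.69 and -2.92 in C3aR-/- and -2.37, -2.42 and -2.70 in WT, without overlap, a difference of -0.74 ± 0.22 (limma, unadjusted p = 0.0135, adjusted p = 0.931) that was -0.68 without WT replicate 1. With normexp background correction it was -0.33.

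Zbp1, a sensor of left-handed nucleic acid that can start necroptosis, had the largest difference of the 40 members, each taken on its brightest probe. On its brightest probe (chr2:173039307-173039366, mm9, minus strand) it read -0.52, -0.53 and -0.05 in C3aR-/- and 1.55, 0.02 and 0.17 in WT. WT replicate 1 stood far above the other 5 arrays there, and the difference of -0.94 ± 0.41 was -0.46 without it. A second Zbp1 probe (chr2:173032258-173032317, mm9, minus strand), which lists another transcript of the gene, read -3.36, -4.25 and -3.21 in C3aR-/- and -1.62, -1.60 and -1.20 in WT. On this probe WT replicate 1 was not apart, all 3 WT arrays lay more than 1 unit above every C3aR-/- array, and the difference was -2.13 ± 0.29. Over the 34778 probes kept it did not pass adjustment (limma, unadjusted p = 0.000211, adjusted p = 0.947). It was singled out after its values were seen. Its signal was dim, and its difference was not computed with normexp. That correction made the difference of the dim gene Ddx60 smaller, -0.33 in place of -0.74. Whether either Zbp1 probe also binds transcripts of other genes was not checked. The first 30 bases of each Zbp1 probe show that the 2 probes are different sequences.
Zbp1, brightest probe: caagctggtcttgaacccacagagatcttc
Zbp1, second probe: acagatgtgacatgaaagtacatgtaacac

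ISG15 is a ubiquitin-like protein that is coupled to newly made proteins, Herc6 is its main ligase in mouse and Usp18 removes it and also blocks the type I receptor. Isg15 read 3.43, 3.50 and 4.45 in C3aR-/- and 5.25, 4.44 and 4.30 in WT. C3aR-/- replicates 1 and 2 lay well below the rest, while C3aR-/- replicate 3 lay among the WT arrays. The signal in C3aR-/- was 0.547 of that in WT (-0.87 ± 0.36, limma, unadjusted p = 0.0498, adjusted p = 0.931), and the difference was -0.58 without WT replicate 1. Usp18 read 0.73, 0.13 and 0.99 in C3aR-/- and 1.69, 1.03 and 1.04 in WT, a difference of -0.64 ± 0.28 whose groups stayed apart by a narrow gap. Herc6 differed by -0.40 ± 0.31, by -0.08 without WT replicate 1 and by -0.21 with normexp.

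Parp9 and Dtx3l form a complex that modifies histones and viral proteins, and Parp12 and Parp14 are further interferon-induced ADP-ribosyltransferases. Dtx3l read 1.11, 0.37 and 1.47 in C3aR-/- and 2.04, 1.62 and 1.46 in WT, a difference of -0.72 ± 0.30. Its partner Parp9 read 1.49, 1.48 and 1.91 in C3aR-/- and 2.42, 1.97 and 1.69 in WT, a difference of -0.40 ± 0.22. C3aR-/- replicate 2 was the lowest array for both, close to C3aR-/- replicate 1 in Parp9 and apart from it in Dtx3l. Parp14 differed by -0.51 ± 0.30, and Parp12 by -0.21 ± 0.24.

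Of the 3 TRIM ligases, 2 read lower. Trim25, which attaches ubiquitin in RIG-I signalling, read 5.10, 5.15 and 5.09 in C3aR-/- and 5.11, 5.13 and 5.08 in WT, the narrowest range of the 40 members. Another kept Trim25 probe gave -0.33 and a further one -0.07. Trim30a, which in mouse damps Toll-like receptor signalling, read 0.58, 0.11 and 0.61 in C3aR-/- and 1.31, 0.67 and 0.98 in WT. Its groups did not overlap (-0.55 ± 0.21, limma, unadjusted p = 0.0383, adjusted p = 0.931). Trim34a differed by -0.29 ± 0.19 on its brightest probe. Its other 3 kept probes gave -0.72, -0.45 and -0.22, and the first of these lists Trim34b transcripts too.

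The remaining 11 members include effectors that act on virions, viral RNA or nucleotides. Bst2 (tetherin), which holds budding virions on the cell surface, read 3.62, 4.02 and 4.89 in C3aR-/- and 5.38, 4.87 and 4.73 in WT, a difference of -0.81 ± 0.35. C3aR-/- replicate 1 was its lowest array, and C3aR-/- replicate 3 exceeded 2 WT arrays. The GTPases Mx1 and Mx2 trap viral nucleocapsids, and both genes carry disabling mutations in C57BL/6 mice. Mx1 read -1.43, -2.22 and -1.06 in C3aR-/- and -0.57, -1.38 and -1.18 in WT, and Mx2 differed by -0.42 ± 0.26.

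Isg20, an RNA exonuclease, read 1.45, 1.15 and 1.97 in C3aR-/- and 2.60, 1.83 and 1.96 in WT. Xaf1, a pro-apoptotic protein, read 1.57, 1.15 and 2.08 in C3aR-/- and 2.82, 2.09 and 1.73 in WT. Rtp4, a receptor-transporting protein, read 2.59, 2.41 and 3.25 in C3aR-/- and 3.95, 3.19 and 2.89 in WT. The differences of these 3 genes were alike in size, at -0.61 ± 0.28, -0.61 ± 0.34 and -0.59 ± 0.33, and WT replicate 1 was the highest array of each.

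Rsad2 (viperin), whose product ddhCTP terminates viral RNA chains, read 1.74, 1.65 and 1.36 in C3aR-/- and 1.88, 1.43 and 1.43 in WT. Its difference was 0.0040 ± 0.17, and C3aR-/- replicate 3 was its lowest array, unlike in the members described so far. A second kept Rsad2 probe gave -0.30. Cmpk2, a neighbour of Rsad2 that supplies its nucleotide, differed by -0.21 ± 0.14. Ifitm3, which blocks viral fusion in endosomes, differed by -0.30 ± 0.20. Adar, which edits double-stranded RNA, differed by -0.10 ± 0.21, and a second kept Adar probe by -0.39 ± 0.12. Samd9l, whose human counterpart inhibits translation, differed by -0.04 ± 0.09.

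**Figure D3:**
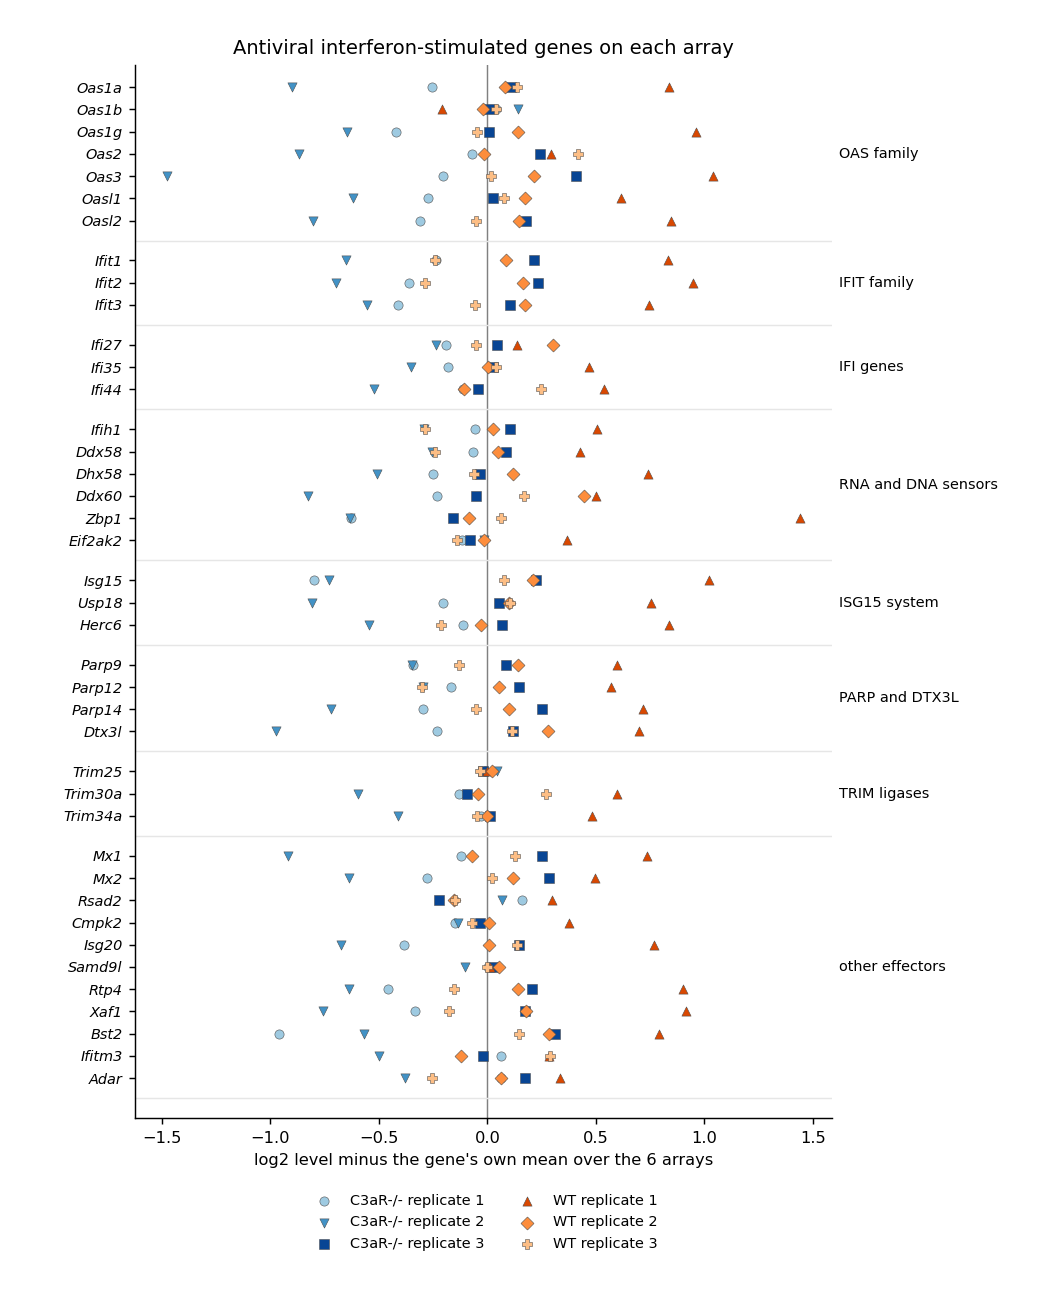
Each member on each of the 6 arrays, as the log2 level minus the gene's own mean over the arrays, in rows by role, C3aR-/- arrays in blue and WT arrays in orange. WT replicate 1 (upward triangles) is the rightmost point in 34 rows and C3aR-/- replicate 2 (downward triangles) the leftmost in 32.

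Setting WT replicate 1 against the other arrays, it was the highest of the 6 for 34 of 40 members, against 28% of all genes. Oas1b, Oas2, Ifi27, Trim25, Samd9l and Ifitm3 were the exceptions. C3aR-/- replicate 2 was the lowest for 32 members, against 20.8% of all genes, and both held for 28, against 10.7%. With each gene's mean over the arrays set to 0, the mean of the 40 members was -0.23, -0.53 and 0.089 in C3aR-/- and 0.61, 0.080 and -0.014 in WT. C3aR-/- replicate 3 therefore lay at the height of WT replicates 2 and 3, and it exceeded the mean of those 2 arrays in 23 of 40 members.

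WT replicate 1 exceeded the mean of the other WT arrays by a median of 0.58 among members, against 0.0018 among all genes. It did so by at least 0.5 in 24 members, where 8.57% of all genes did. By role, this excess was 0.91 for the IFIT family, 0.88 for the ISG15 system, 0.73 for the OAS family, 0.64 for PARP and DTX3L, 0.58 for the sensors, 0.48 for the TRIM ligases, 0.45 for the IFI genes and 0.45 for the other effectors. The largest excess was that of Zbp1, at 1.45 on its brightest probe.

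Without WT replicate 1, 32 of 40 members read lower in C3aR-/-, against 43.6% of all genes, with a median of -0.29. At an unadjusted p under 0.05, 2 members were lower, against 2.52% of all genes. Without WT replicate 1 and C3aR-/- replicate 2 together, 30 members read lower, against 45.4% of all genes, with a median of -0.09, and 1 had an unadjusted p under 0.05, against 4.08%. No gene passed adjustment in either case. Without both arrays Isg15 differed by -0.43, Bst2 by -0.54 and Ddx60 by -0.45, while Oas3 (-0.014), Ifit2 (-0.0038) and Mx1 (0.037) lay near 0. Since these 2 arrays lie at opposite ends in opposite groups, leaving both out lowers any difference along that line.

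The 6 arrays lay in 2 rows of 1 slide, with C3aR-/- replicate 3 and WT replicate 1 in the second row and the other 4 arrays in the first. Within the first row 36 members read lower in C3aR-/-, against 43.5% of all genes, with a median of -0.47, and 14 had an unadjusted p under 0.05, against 3.24%. Within the second row, 1 array against 1 and so without a test, 38 did, against 49.2%, with a median of -0.54. With the row as a block the members' median was again -0.49, and 24 members had an unadjusted p under 0.05, all lower, against 4.29% of all genes, and 0 passed adjustment.

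**Figure D4:**
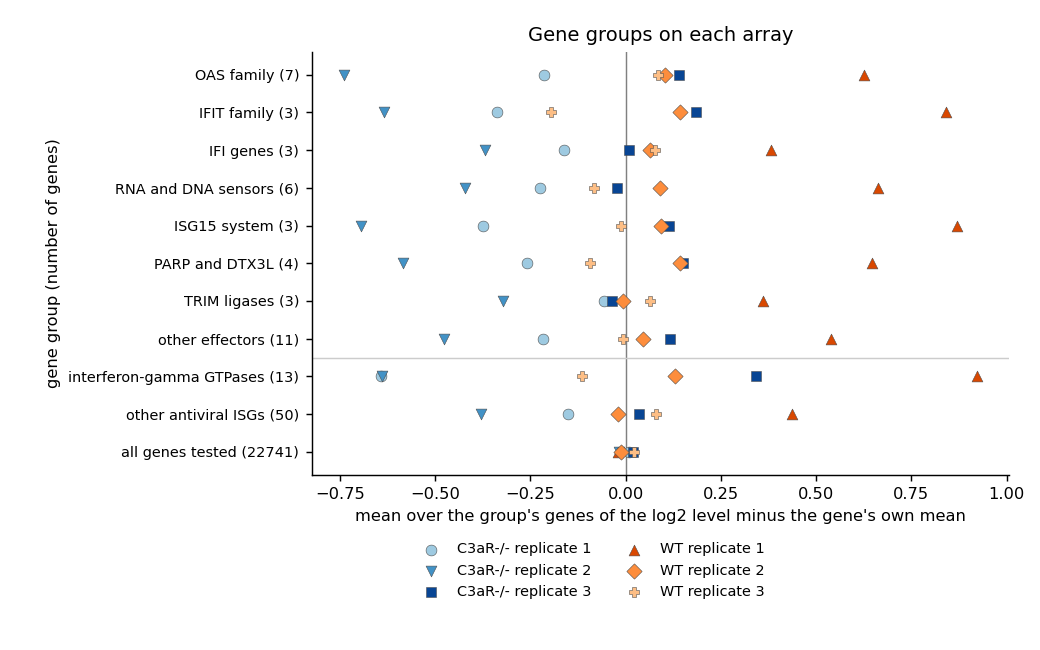
Mean of each gene group on each array, as log2 levels minus each gene's own mean, for the 8 roles and, under the grey line, 13 interferon-gamma GTPases, 50 other antiviral genes and all 22741 genes tested. WT replicate 1 lies at the right and C3aR-/- replicate 2 at or near the left in every group except all genes, whose 6 points lie near 0.

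By role, the median difference was -0.64 for the ISG15 system, -0.63 for the OAS family, -0.55 for the IFIT family, -0.46 for PARP and DTX3L, -0.42 for the other effectors, -0.35 for the sensors, -0.34 for the IFI genes and -0.29 for the TRIM ligases. The gaps between neighbours in this order were smaller than the median standard error of a member's difference between genotypes (0.25). That standard error is not the spread of a gap between roles, and no test of a difference between roles was made. Without WT replicate 1 the medians were -0.42 for the ISG15 system, -0.41 for the OAS family, -0.21 for the IFIT family, -0.24 for PARP and DTX3L, -0.28 for the other effectors, -0.14 for the sensors, -0.25 for the IFI genes and -0.12 for the TRIM ligases. Without C3aR-/- replicate 2 as well, every one of these 8 medians lay between -0.18 (ISG15 system) and -0.0038 (IFIT family). Members whose window held the ISRE core had a median of -0.55 and members whose window did not had -0.42. The 4 genes with overlapping matches differed by -0.70 to -0.87, but Oas3 with 1 match differed by -0.85 and Dtx3l without a match by -0.72. Rsad2, with a match before its start, differed by 0.0040. For the GAS core the medians were -0.44 in members with it and -0.45 in members without. No link between matches and differences was tested.

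Of 69 kept member probes, 65 read lower in C3aR-/-, with a median of -0.42, against 43.9% of all kept probes and a median of 0.025. For 21 members more than 1 probe was kept, and Ifih1, Oas1b, Rsad2 and Trim25 had probes of opposite sign. Ddx60, Isg20, Oasl1, Mx1 and Parp14 had probes that differed from each other by less than their standard errors, as the plot of single probes shows. Further apart were Parp9, whose other probes gave -0.093 and -0.025, Ifi44 with -0.032, Xaf1 with -0.20 and Trim30a with -0.61 and -0.19.

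**Figure D5:**
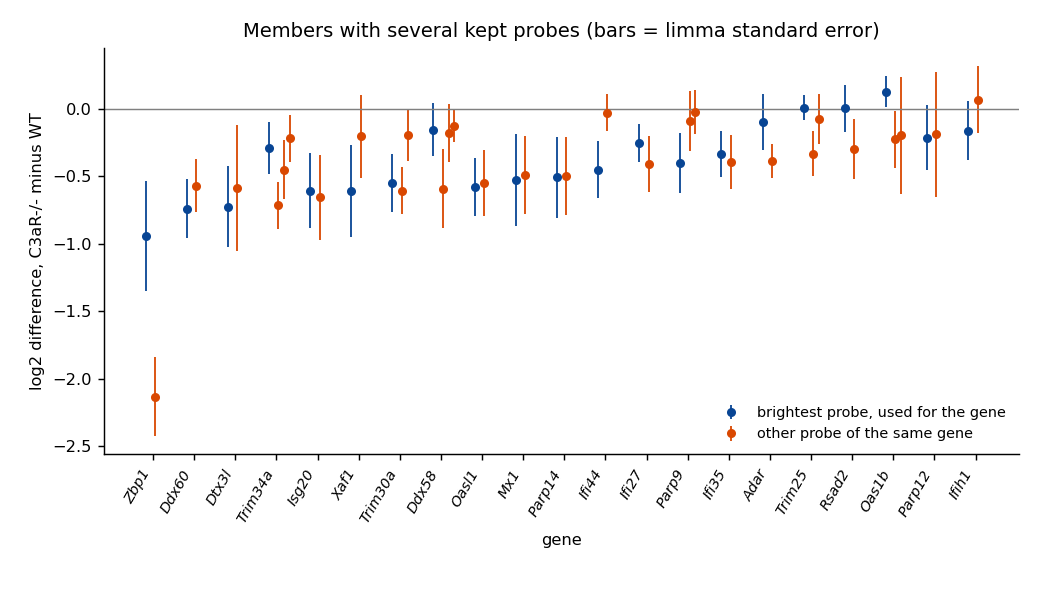
Difference (C3aR-/- minus WT, log2) of every kept probe of the 21 members with more than 1, with limma standard errors; blue points are the brightest probe, used for the gene, and orange points the other probes. The second Zbp1 probe lies lowest at -2.13, and the probes of Ifih1, Oas1b, Rsad2 and Trim25 lie on both sides of 0.

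Upstream of these genes, the ligands were mostly dim. Of 20 interferon genes listed, 18 had a probe and 9 were tested, and another 9 had probes that were on no array well above background, among them Ifnb1. Of the 9 tested, 4 read lower and 5 higher, with a median of 0.013, against 0.026 over all genes. That median was -0.12 without WT replicate 1 and 0.067 without both end arrays. Ifng, the type II interferon, read -4.01, -4.24 and -3.34 in C3aR-/- and -2.19, -3.03 and -2.68 in WT, without overlap, a difference of -1.23 ± 0.30 that was -0.61 with normexp. Ifnl3 differed by 0.24 ± 0.11. Of 6 receptor genes 5 read lower, with a median of -0.18 that was -0.041 without WT replicate 1 and 0.0093 without both end arrays. By smallest p, the first was Ifnlr1 at -0.20 ± 0.09, and Ifngr2 had the larger difference, -0.23 ± 0.18.

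Of 13 JAK, STAT and IRF genes 12 read lower, with a median of -0.25, which was -0.11 without WT replicate 1 and -0.0062 without both end arrays. Irf7, itself induced by interferon, differed by -0.47 ± 0.22 and Irf8 by -0.39 ± 0.20, or by -0.31 and -0.24 without WT replicate 1. Stat2 and Irf9, transcription factors of type I signalling, were taken for their role after their values were seen, and differed by -0.33 ± 0.22 and -0.23 ± 0.19, or by -0.18 and -0.08 without WT replicate 1. Of 14 adaptors and kinases 9 read lower, with a median of -0.10 (-0.034 without WT replicate 1 and 0.031 without both end arrays). Of 8 feedback inhibitors 4 did, with a median of -0.09 (-0.073 without WT replicate 1 and -0.016 without both end arrays). Usp18, a member that read lower, is among these 8 too. In these lists Ikbke, a kinase that phosphorylates IRF factors, differed by -0.66 ± 0.17, or by -0.23 with normexp, and Socs3 by -0.72 ± 0.28.

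Among 50 further antiviral genes tested, 47 read lower, with a median of -0.30, which was -0.17 without WT replicate 1 and -0.10 without both end arrays. At an unadjusted p under 0.05, 8 of the 50 were lower, against 2.68% of all genes. The smallest p-values in the list were those of Trim12c (-0.56 ± 0.13) and Slfn8 (-0.68 ± 0.24). All 13 interferon-gamma GTPases tested read lower, with a median of -0.69. With WT replicate 1 left out it was 12 of 13 with a median of -0.31, and without both end arrays the median was -0.11. At an unadjusted p under 0.05 there were 0 of them in limma's test with all arrays, and 0 passed adjustment. Their arrays spread widely, and the centred mean of the group was -0.64, -0.64 and 0.34 in C3aR-/- and 0.92, 0.13 and -0.11 in WT. Of 4 genes for CXCR3 and its chemokines 3 read lower, with a median of -0.95, which was -0.69 without WT replicate 1 and -0.48 without both end arrays. By smallest p in that list, Cxcl9, a chemokine induced by type II interferon, differed by -1.39 ± 0.36 and its receptor Cxcr3 by -1.25 ± 0.31. None of these genes passed adjustment.

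Markers of several other cell types differed in the same direction as the members. All 14 T cell markers tested read lower in C3aR-/-, and their summed linear level was 3.13 to 5.32 in C3aR-/- and 6.93 to 10.7 in WT. Their median of -1.14 was -1.17 without WT replicate 1 and -0.87 without both end arrays. In limma's test 13 of the 14 were lower at an unadjusted p under 0.05, against 2.68% of all genes, and 0 passed adjustment. Of 14 macrophage markers 12 read lower, with sums of 55.6 to 74.1 in C3aR-/- and 75.3 to 109 in WT, and their median of -0.57 was -0.38 without WT replicate 1 and -0.20 without both end arrays. At an unadjusted p under 0.05 in limma's test 6 macrophage markers were lower and 1 higher, against 4.89% of all genes in either direction. Of these 0 passed adjustment. The T cell markers were highest on WT replicate 3, with centred means of -0.39, -0.99 and -0.19 in C3aR-/- and 0.60, 0.18 and 0.79 in WT, whereas the 40 members lay at -0.014 on that array. All 10 proximal tubule markers read higher in C3aR-/-, and their centred mean was lowest on WT replicate 1 (-0.91) and highest on C3aR-/- replicate 2 (0.61), the reverse of the members. Leaving out WT replicate 1, 3 of the 10 read lower in C3aR-/-, with a median of 0.087 in place of 0.34, and without both end arrays the median was -0.070. Of 9 markers of plasmacytoid dendritic cells, which make type I interferon, 4 read lower and 5 higher, with a median of 0.062, and Bst2 is in that list too. Their sums were 290 to 335 in C3aR-/- and 294 to 310 in WT. A linear sum follows the brightest genes of a list, so these sums say little of its dim markers. No check was made that other kidney cells do not express the genes of this list. Its median and sums therefore do not show whether plasmacytoid dendritic cells differed between the groups. In limma's test 2 of the 9 had an unadjusted p under 0.05, both lower, against 2.68% of all genes. The smaller p was that of Spib, which differed by -0.85 ± 0.18, or by -0.28 with normexp. Of 8 endothelial markers 1 read lower, of 6 B cell markers 5 and of 6 neutrophil markers 3. At an unadjusted p under 0.05 in limma's test 1 B cell marker was lower, and the count was 0 for endothelial, neutrophil and proximal tubule markers. The part of these cells in the members' differences was not tested.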

How the data were processed

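Agilent Feature Extraction 10.7.1.1 made the deposited intensity values (processed signal, and mean and background signals), per the file headers; positions are on mm9. The authors' deposited table holds log2 values, and no source used here names the tool that normalized them. RNA (0.2 µg) was labelled with Cy3, per the labels' protocols. Groups came from the sample titles. Control and outlier spots were left out, spots of 1 probe averaged, and log2 of the processed signal was taken minus each array's 75th percentile. Probes well above background on at least 3 arrays were kept (34778), and the brightest probe stood for a gene (22741 genes). Array correlations ran from 0.982 to 0.990 and no probe was saturated; the number of arrays limits the precision. For 32987 probes the symbol came from RefSeq (GRCm38.p6) and for 23612 from the files.

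Genotype was tested with limma 3.58.1 (functions lmFit and eBayes, R 4.3.3), p-values being adjusted over all genes by Benjamini-Hochberg, after a check on simulated data. The members and gene lists were chosen with earlier results of these data known. Named were all 40 members, C3ar1, Stat2, Irf9 and, by smallest p in its marker list, Spib. Of each pathway list the 2 genes with the smallest p were named, apart from the interferon-gamma GTPases (none) and the adaptors and kinases (Ikbke only). The values of 1 further gene are not reported here. Alternatives were other scalings, background correction with normexp (offset 50), the authors' table, filters, probe choice, variance models, array weights, blocks and leaving out arrays. Single probes of the members were added after the data were seen. Figures were drawn with matplotlib 3.10.9.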

Additional observations from a re-analysis of the deposited data

How the results depend on the processing

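The count past an adjusted p of 0.05 was 0, for members and for all genes, under every alternative that allowed a test; slide row 2, with 1 array a group, allowed none. The members' median difference of -0.49 ran from -0.67 to -0.29 when single arrays were left out, and it was -0.40 with normexp, -0.30 with array weights and -0.090 without WT replicate 1 and C3aR-/- replicate 2 together, which is beyond the between-replicate SD of 0.32. Without both arrays the differences of Ifit1 (0.065), Ifih1 (0.15), Ddx58 (0.11), Herc6 (0.097), Parp12 (0.11), Trim34a (0.013), Mx1 (0.037), Adar (0.21), Ifngr2 (0.041) and Irf9 (0.033) lay above 0, and that of Trim25 below it (-0.0093). Over single arrays left out, the difference ran from -0.35 to 0.049 for Ifih1, -0.31 to 0.019 for Ddx58, -0.25 to 0.0058 for Eif2ak2, -0.42 to 0.017 for Parp12, -0.011 to 0.021 for Trim25, -0.076 to 0.15 for Rsad2 and -0.25 to 0.068 for Adar. Rsad2 was -0.00083 with quantile normalization, -0.00031 with median scaling, -0.017 with normexp, -0.0013 in the authors' deposited table, -0.15 as the mean of probes, -0.52 within slide row 2 and -0.30 on its other probe. Trim25 was -0.014 with quantile normalization, -0.014 in the authors' deposited table, -0.13 as the mean of probes, -0.0088 with array weights, -0.022 within slide row 2 and -0.33 and -0.074 on its other probes. Oas1b was -0.10 as the mean of probes and -0.23 and -0.20 on its other probes, Ifih1 was 0.066 on a second probe, Eif2ak2 was 0.0096 within slide row 1, Samd9l was 0.019 within slide row 2 and Adar was 0.048 with array weights. The cause was not tested. Scalings moved the median of all genes by less than 0.1. With normexp in place of the processed signal, Oas3 was -0.25 in place of -0.85, Ddx60 -0.33 in place of -0.74, Ifng -0.61 in place of -1.23, Ikbke -0.23 in place of -0.66 and C3ar1 -0.39 in place of -1.10. With that correction Oas1g was -0.46 in place of -0.71 and Herc6 -0.21 in place of -0.40.

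Replicate numbers did not pair the arrays: deviations of same-numbered arrays correlated at 0.13, 0.41 and -0.093. With the replicate number as a block the members' median was again -0.49, and 0 genes passed adjustment.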
